A study of Mus musculus with 12 samples.

Results

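The genes described here are 10 genes of prostaglandin and leukotriene biology, chosen by name among the 24346 gene symbols of the files. They are the receptor genes *Ptgdr2*, *Ptger2*, *Ptger4*, *Ptgir* and *Cysltr1* and the enzyme or enzyme-partner genes *Ptgs2*, *Hpgds*, *Hpgd*, *Alox5* and *Alox5ap*. Prostaglandins and leukotrienes are lipid mediators made from arachidonic acid, a fatty acid released from membranes by phospholipase A2. Cyclooxygenases such as the product of *Ptgs2* start the prostaglandin branch, whereas 5-lipoxygenase and its activating protein start the leukotriene branch. In the lung, prostaglandin D2 and cysteinyl leukotrienes are known to activate group 2 innate lymphoid cells (ILC2s), which secrete type 2 cytokines, whereas prostaglandin E2 and prostacyclin are known to restrain them.

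RNA of lung ILC2s from mice labelled C57BL/6 (C57BL/6J in the methods) was sequenced in 12 libraries, 3 in each of 4 groups. The groups were WT mice given PBS, *Sema6d*-/- mice (6DKO in the labels) given PBS, WT mice given IL-33 and *Sema6d*-/- mice given IL-33, with PBS or IL-33 delivered intranasally for 3 days. IL-33 is an alarmin cytokine that activates ILC2s, and Sema6D is a transmembrane semaphorin. The mice were adult, *Sema6d* was lost in the whole body and not in ILC2s alone, and the cells were sorted as CD45+, lineage-negative, Thy1.2+ and ST2+. The labels give the IL-33 dose as 50 ng, and the study's methods give a higher one. Nothing in the labels says whether each library came from a separate mouse, so the p-values measure the spread between libraries.

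The values are FPKM, fragments scaled to transcript length and to the size of the library. With WT IL-33 replicate 3 set to 1, the relative depth of the libraries, estimated from weakly expressed genes, was 0.739 to 0.998 under PBS and 0.968 to 1.39 under IL-33. Among the 3617 genes with a mean of 5 to 20 FPKM, each PBS library listed 4.67% to 17.7% at 0, and each IL-33 library 0.691% to 1.38%. Zeros are therefore reported as listed, and *Hpgd*, *Hpgds* and *Alox5ap*, which had some, are given library by library without group means. Differences between groups are differences of mean log2(FPKM + 1), which understate the change of weakly expressed genes. They were tested with limma over 11442 genes, and a gene is called at a Benjamini-Hochberg adjusted p under 0.05.

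The label of the cells was checked against 11 ILC2 genes, and all 11, *Gata3* and *Il1rl1* among them, were above 1 FPKM in all 12 libraries. The list includes *Il1rl1* and *Thy1*, the genes of the sort markers ST2 and Thy1.2, and 7696 to 10081 genes per library were above 1 FPKM. The summed level of the 11 genes was 5614 to 9033 FPKM. *Id2* had the highest mean of these genes at 2623 FPKM, followed by *Areg* at 1602, *Il5* at 648 and *Klrg1* at 480. Over both genotypes 1 of the 11 rose with IL-33 and 4 fell, beside 665 and 354 of the 11442 genes tested (8.91% called). *Klrg1* rose by 0.93 on the log2 scale (limma adjusted p = 0.0122), and *Il2ra* had the largest fall among them, with a difference of −1.86 (limma adjusted p = 6.2e-05). *Il5*, *Icos* and *Areg* differed by −0.81, −0.53 and −0.52 (limma adjusted p = 0.0182, 0.0358 and 0.0179).

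The transcript of the targeted gene was present in every library. *Sema6d* was at 27.5, 46.1 and 37.5 FPKM in WT PBS, 29.0, 22.9 and 19.8 in *Sema6d*-/- PBS, 19.7, 35.5 and 28.7 in WT IL-33 and 15.4, 13.6 and 13.8 in *Sema6d*-/- IL-33 libraries. Values of the genotypes lay apart under IL-33 (exact permutation p = 0.10, the smallest that 3 libraries against 3 allow) and overlapped under PBS (exact permutation p = 0.20). With limma the genotype difference was −0.89 ± 0.31 (SE) under IL-33 (adjusted p = 1) and −0.60 ± 0.31 under PBS (adjusted p = 0.459). Which exons the mutation removes cannot be seen in values per gene.

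Several libraries held transcripts characteristic of other cell types, although the lineage antibodies of the sort included ones against NK cells, macrophages and dendritic cells. *Sema6d*-/- PBS replicate 2 had 653 FPKM of *Gzma* and 58.9 of *Ncr1*, genes of NK cells, and 112 FPKM of *Lyz2*, a myeloid gene. The summed NK cell markers were 756 FPKM in that library and 0 to 40.2 in the other 11. The summed macrophage markers were 223 FPKM in that library, 435 and 147 in *Sema6d*-/- IL-33 replicates 2 and 3, and 0.390 to 17.1 in the other 9. *Chil3*, the most abundant of them, reached 394 FPKM in *Sema6d*-/- IL-33 replicate 2. WT PBS replicate 3 had 134 FPKM of *Hdc*, the histidine decarboxylase gene of mast cells and basophils, against at most 5.01 in the other 11. In that library *Kit* and *Cpa3*, at 81.7 and 73.3 FPKM, lay within the range of the other PBS libraries. *Cma1*, *Tpsb2*, *Tpsab1*, *Ms4a2*, *Fcer1a* and *Cd200r3* were listed at 0 in it, and *Gata2* was at 0.908. Of the mast cell, basophil, eosinophil and neutrophil lists, *Mcpt4*, *Mcpt8*, *Prss34*, *Prg2*, *Epx*, *S100a8* and *S100a9* were listed at 0 in all 12 libraries, whereas *Kit* (37.4 to 150 FPKM), *Cpa3* (17.8 to 89.3) and *Cxcr2* (5.45 to 11.2) were present in all 12 and *Ccr3* in 7. *Cma1* and *Cd200r3* were highest in *Sema6d*-/- PBS replicate 2, at 5.90 and 6.78 FPKM. Because eicosanoid enzymes are also made by myeloid cells, a fit without *Sema6d*-/- PBS replicate 2 and *Sema6d*-/- IL-33 replicates 2 and 3 was added after the marker values were seen. It leaves 1 library in the *Sema6d*-/- IL-33 group and 2 in the *Sema6d*-/- PBS group, so the single library is assumed to vary like the other groups, and a call lost in it does not separate other cells from fewer libraries.

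Of the 10 genes, 9 had a value above 0 in some library, and the same 9 passed the filter of a mean of 0.5 FPKM. *Ptger4* had the highest mean over the 12 libraries at 123 FPKM, rank 901 of 24346, followed by *Alox5* at 86.7, *Ptgir* at 65.7, *Cysltr1* at 41.2 and *Ptgs2* at 35.1. *Alox5ap* at 13.3 and *Ptger2* at 12.5 stood lower, and *Hpgds* at 3.87 and *Hpgd* at 3.75 lowest among the 9. The ranges of neighbours in this order overlapped over the 12 libraries, and the order changed with treatment. Under PBS the mean of *Alox5* (124 FPKM) was above that of *Ptger4* (107), and under IL-33 every value of *Ptgs2* was at most 20.1 FPKM, within the 15.2 to 35.3 of *Alox5ap*. *Ptgdr2*, which encodes the prostaglandin D2 receptor CRTH2 and is often used to mark ILC2s, was listed at 0 in all 12 libraries and could not be tested. Whether the transcript was absent or lost in quantification cannot be told from these values.

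**Figure D1:**
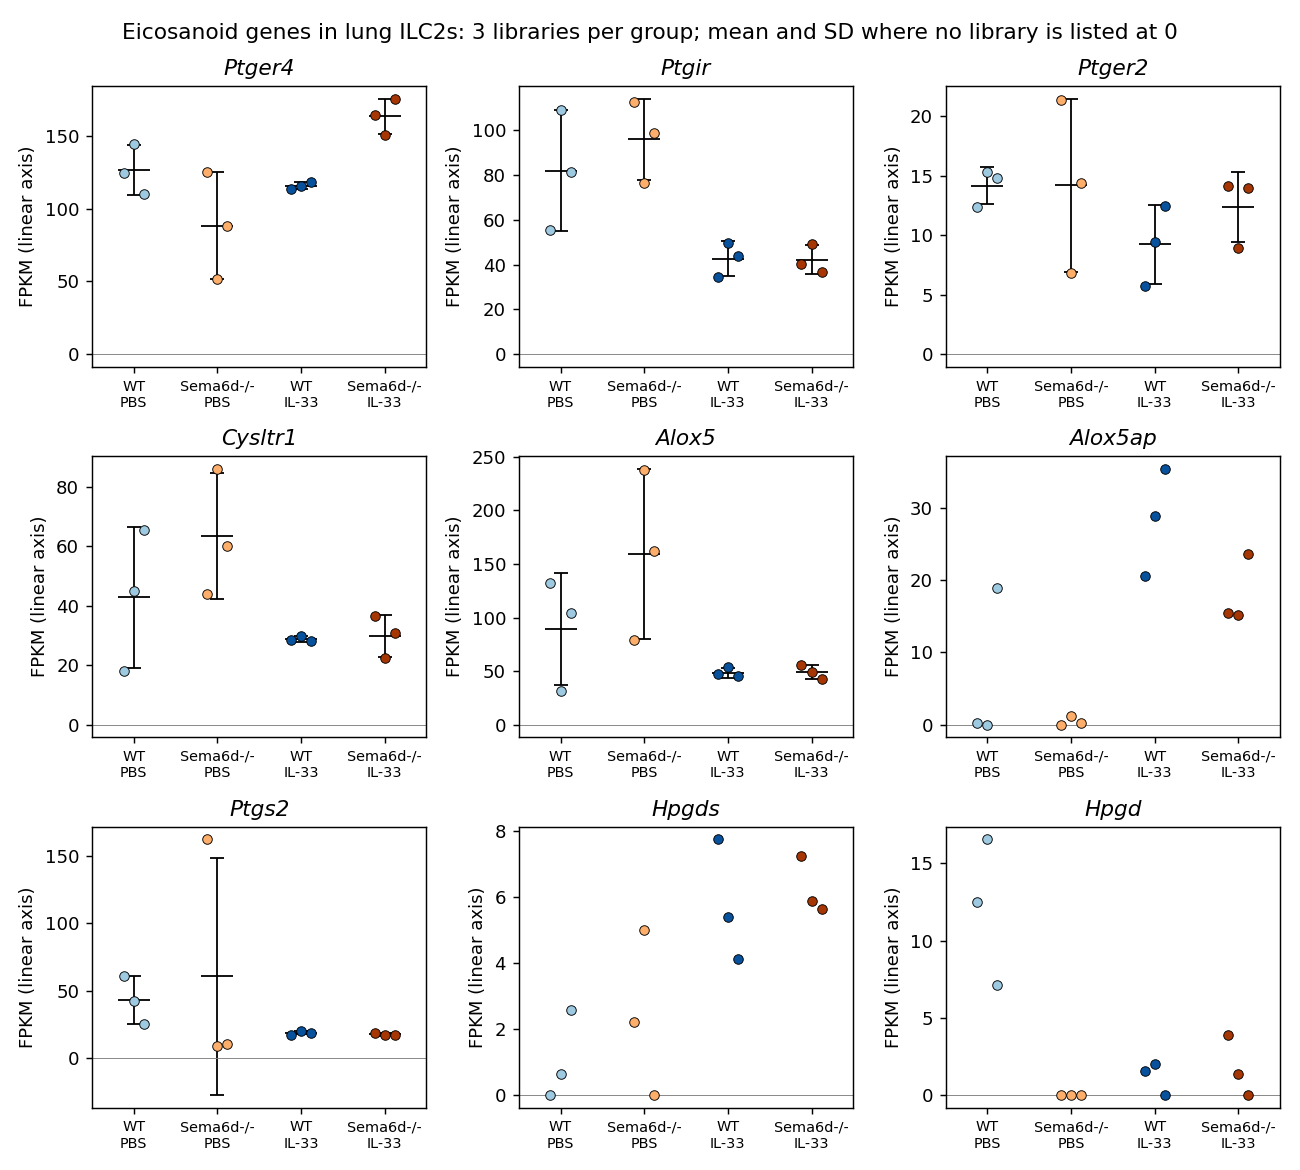
Level in FPKM, on linear axes, of 9 eicosanoid genes in lung ILC2s. Points are the 3 libraries of each group, and horizontal and vertical lines are the mean and SD, drawn only for genes with no library listed at 0. *Ptgir* values lie at 55.2 FPKM or above in the 6 PBS libraries and at 49.8 or below in the 6 IL-33 libraries, and *Hpgd* is listed at 0 in all 3 *Sema6d*-/- PBS libraries.

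Among the receptors, *Ptgir* fell with IL-33. It encodes the receptor of prostacyclin, which couples to Gs and raises cAMP. It was at 55.2, 109 and 81.4 FPKM in WT PBS, 113, 76.6 and 98.6 in *Sema6d*-/- PBS, 34.4, 49.8 and 43.6 in WT IL-33 and 40.5, 49.3 and 36.9 in *Sema6d*-/- IL-33 libraries. All 6 IL-33 libraries were below all 6 PBS libraries. The mean was 88.9 ± 21.9 FPKM (SD, n = 6) under PBS and 42.4 ± 6.34 under IL-33. Within WT it was 1.92-fold lower under IL-33, and within *Sema6d*-/- 2.27-fold.

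Over both genotypes the log2 difference of *Ptgir* was −1.02 ± 0.20 (SE; limma adjusted p = 0.00739), and an exact permutation test of treatment within genotype gave p = 0.005, the smallest its 400 assignments allow. The difference was −0.89 ± 0.28 in WT (limma adjusted p = 0.109) and −1.16 ± 0.28 in *Sema6d*-/- libraries (limma adjusted p = 0.0499). The interaction of genotype and treatment was −0.27 ± 0.39 (limma adjusted p = 0.927; −0.50 without WT PBS replicate 2 and −0.016 without WT PBS replicate 1), so a difference in response between genotypes was not shown. The call over both genotypes held with each of the 12 libraries left out in turn, and ended in the fit without 3 libraries, where the difference was −1.12 (limma adjusted p = 0.0623; range over 18 alternatives 0.00306 to 0.0623). The call within *Sema6d*-/- libraries held in 4 of 19 alternatives (limma adjusted p = 0.0255 to 0.311). Array weights ended it (limma adjusted p = 0.0918), as did no filter (0.0536), quantile normalization (0.0511), only the groups compared (0.0514) and the replicate block (0.0806). It also ended with 3 libraries left out, where the difference was −1.36. Of 12 libraries left out in turn, 9 ended it (limma adjusted p = 0.0592 to 0.179). These were WT PBS replicate 3, *Sema6d*-/- PBS replicates 1 and 3 and each of the 6 IL-33 libraries. *Ptgir* became a call in WT without WT PBS replicate 1 (limma adjusted p = 0.042; range over 19 alternatives 0.042 to 0.334).

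*Ptger4* had the highest mean of the receptors over the 12 libraries, although in *Sema6d*-/- PBS the mean of *Ptgir* was higher (95.9 against 88.3 FPKM). It encodes EP4, a Gs-coupled receptor of prostaglandin E2. Its values were 125, 144 and 110 FPKM in WT PBS, 125, 51.8 and 87.9 in *Sema6d*-/- PBS, 114, 115 and 118 in WT IL-33 and 164, 151 and 175 in *Sema6d*-/- IL-33 libraries. The 3 *Sema6d*-/- IL-33 libraries were the highest of the 12, and the lowest was *Sema6d*-/- PBS replicate 2, the library with NK cell transcripts. Under IL-33 the genotypes did not overlap, with means of 116 ± 2.44 and 163 ± 12.1 FPKM (SD, n = 3 each).

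No genotype or treatment difference of *Ptger4* was called. The genotype difference under IL-33 was 0.49 ± 0.27 (limma adjusted p = 1; exact permutation p = 0.10, the smallest possible), and under PBS it was −0.59 ± 0.27 (limma adjusted p = 0.377). These standard errors come from a spread shared by all 4 groups. On the log2 scale the pooled SD of *Ptger4* was 0.47 under PBS and 0.079 under IL-33. Over 19 alternatives the genotype difference under IL-33 was 0.44 to 0.55. IL-33 against PBS gave −0.12 ± 0.27 in WT (limma adjusted p = 0.883) and 0.97 ± 0.27 in *Sema6d*-/- libraries (limma adjusted p = 0.0866). The difference in WT was −0.017 without WT PBS replicate 2 and −0.21 without WT PBS replicate 3. The interaction was 1.08 ± 0.38 (limma adjusted p = 0.842), and an exact permutation test of genotype within treatment, added after the values were seen, gave p = 0.015. Its null is no genotype effect at all, and not equal responses. Without *Sema6d*-/- PBS replicate 1, *Ptger4* became a call in *Sema6d*-/- libraries (1.26, limma adjusted p = 0.0184; range over 19 alternatives 0.0184 to 0.543) and over both genotypes (0.57, limma adjusted p = 0.0384; range 0.0384 to 0.518). Array weights also called it in *Sema6d*-/- libraries (0.037). In the fit without 3 libraries the difference was 0.64 in *Sema6d*-/- libraries (limma adjusted p = 0.543), the genotype difference under PBS −0.26 (0.691) and the interaction 0.76 (1).

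*Ptger2* encodes EP2, the other Gs-coupled receptor of prostaglandin E2. It was at 6.79 to 21.4 FPKM (median 14.6) in the PBS and 5.77 to 14.1 (median 10.9) in the IL-33 libraries, and the groups overlapped. Its difference over both genotypes was −0.35 ± 0.32 (limma adjusted p = 0.561), with −0.56 without *Sema6d*-/- PBS replicate 2 and −0.18 without *Sema6d*-/- PBS replicate 1. Its direction in *Sema6d*-/- libraries, −0.08 ± 0.45 (limma adjusted p = 0.967), turned to 0.0041 under quantile normalization and to 0.26 without *Sema6d*-/- PBS replicate 1.

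*Cysltr1* encodes the receptor through which cysteinyl leukotrienes act on ILC2s, coupled mainly to Gq. Its values were 18.03, 44.7 and 65.4 FPKM in WT PBS, 44.0, 85.9 and 60.2 in *Sema6d*-/- PBS, 28.3, 29.9 and 28.1 in WT IL-33 and 36.4, 22.4 and 30.9 in *Sema6d*-/- IL-33 libraries. WT PBS replicate 1 lay below all 6 IL-33 libraries, and the other 5 PBS libraries lay above them. The difference over both genotypes was −0.71 ± 0.30 (limma adjusted p = 0.182; exact permutation p = 0.06 within genotype). Without WT PBS replicate 1 it was −0.96 (limma adjusted p = 0.0237; range over 18 alternatives 0.0237 to 0.694), and in the fit without 3 libraries it was −0.43 (limma adjusted p = 0.694). Without WT PBS replicate 3 the difference in WT turned from −0.38 to 0.011. In *Sema6d*-/- libraries, where the treatments did not overlap, the difference was −1.03 (limma adjusted p = 0.264). There it stayed negative over 19 alternatives, at −1.26 to −0.49.

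*Alox5* and *Alox5ap*, the gene pair of the first step of leukotriene synthesis, had opposite signs of difference between IL-33 and PBS. *Alox5* encodes 5-lipoxygenase. It was at 132, 31.7 and 104 FPKM in WT PBS, 79.4, 238 and 162 in *Sema6d*-/- PBS, 46.9, 53.8 and 45.0 in WT IL-33 and 55.7, 49.4 and 42.7 in *Sema6d*-/- IL-33 libraries. WT PBS replicate 2 was the lowest of the 12 libraries, the other 5 PBS libraries were above all 6 IL-33 libraries, and the highest value was in *Sema6d*-/- PBS replicate 2. PBS values spanned 7.51-fold and IL-33 values 1.30-fold.

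The difference of *Alox5* over both genotypes, −1.09 ± 0.35, was not called (limma adjusted p = 0.0749), with an exact permutation p of 0.035 within genotype. It became a call without WT PBS replicate 2 (limma adjusted p = 0.00662) or *Sema6d*-/- PBS replicate 1 (0.0318) and with array weights (0.0144), and in the fit without 3 libraries it was −0.83 (0.503; range over 18 alternatives 0.00662 to 0.503). The difference was −0.64 ± 0.49 in WT (limma adjusted p = 0.561; −1.26 without WT PBS replicate 2 and −0.24 without WT PBS replicate 1) and −1.55 ± 0.49 in *Sema6d*-/- libraries (limma adjusted p = 0.139), the latter a call without WT PBS replicate 2 (limma adjusted p = 0.0348) and with array weights (0.0451; range over 19 alternatives 0.0348 to 0.846). The interaction was −0.91 ± 0.69 (limma adjusted p = 0.894), with −1.34 without *Sema6d*-/- PBS replicate 1 and −0.29 without WT PBS replicate 2.

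*Alox5ap* rose with IL-33. It encodes FLAP, the membrane protein that presents arachidonic acid to 5-lipoxygenase. It was at 0.225, 0 and 18.8 FPKM in WT PBS, 0, 1.23 and 0.167 in *Sema6d*-/- PBS, 20.5, 28.8 and 35.3 in WT IL-33 and 15.5, 15.2 and 23.5 in *Sema6d*-/- IL-33 libraries. WT PBS replicate 3, the library with *Hdc* at 134 FPKM, was the PBS library that overlapped the IL-33 libraries, and the other 5 PBS libraries lay below all 6. Its 16.6 FPKM of *Lyz2* was also above the 0.195 and 0.810 of the other WT PBS libraries. *Sema6d*-/- PBS replicate 2, with 112 FPKM of *Lyz2*, had *Alox5ap* at 1.23. *Sema6d*-/- IL-33 replicates 2 and 3, with summed macrophage markers of 435 and 147 FPKM, had *Alox5ap* at 15.2, the lowest IL-33 value, and 23.5. The part of other cells in the *Alox5ap* value of WT PBS replicate 3 was not tested.

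The log2 difference of *Alox5ap* over both genotypes was 3.53 ± 0.66 (limma adjusted p = 0.00605; exact permutation p = 0.005 within genotype, the smallest possible). It was 3.30 ± 0.94 in WT (limma adjusted p = 0.0752) and 3.76 ± 0.94 in *Sema6d*-/- libraries (limma adjusted p = 0.0561). Without WT PBS replicate 3 these 2 became calls (limma adjusted p = 0.00145 and 0.00252), and the latter also did without WT PBS replicate 2 (0.0392), with array weights (0.0422), with only the groups compared (0.0265) and with quantile normalization (0.0402). Their ranges over 19 alternatives were 0.00145 to 0.241 and 0.00252 to 0.567. The call over both genotypes held with each library left out in turn and ended in the fit without 3 libraries, where the difference was 3.62 (limma adjusted p = 0.126; range over 18 alternatives 0.000101 to 0.126). Under IL-33 the genotypes overlapped, with a difference of −0.61 ± 0.94 (limma adjusted p = 1). The size of the *Alox5ap* differences between treatments depends on the pseudocount because of the zeros. With a pseudocount of 0.1 they were 5.39 over both genotypes, 5.02 in WT and 5.76 in *Sema6d*-/- libraries.

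*Ptgs2* encodes cyclooxygenase-2, the inducible enzyme that makes the precursor of all prostaglandins. Its values were 61.3, 42.4 and 25.6 FPKM in WT PBS, 162, 9.35 and 10.5 in *Sema6d*-/- PBS, 17.5, 20.1 and 19.0 in WT IL-33 and 18.8, 17.4 and 17.0 in *Sema6d*-/- IL-33 libraries. The *Sema6d*-/- PBS group held both the highest value and the 2 lowest, and the PBS libraries spanned 17.4-fold, whereas the IL-33 libraries spanned 1.19-fold. The differences were −1.07 ± 0.83 in WT, where the groups did not overlap (limma adjusted p = 0.565), and −0.52 ± 0.83 in *Sema6d*-/- libraries (limma adjusted p = 0.821). *Sema6d*-/- PBS replicate 1 decided the latter, which was 0.78 without it. The genotype difference under PBS, −0.63 ± 0.83 (limma adjusted p = 0.779), was −1.93 without that library, a call (limma adjusted p = 0.0293; range over 19 alternatives 0.0293 to 1), and 0.060 without replicate 2 of the same group.

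*Hpgds* encodes the hematopoietic prostaglandin D synthase. It was at 0, 0.623 and 2.59 FPKM in WT PBS, 2.21, 5.02 and 0 in *Sema6d*-/- PBS, 7.76, 5.39 and 4.11 in WT IL-33 and 7.25, 5.88 and 5.65 in *Sema6d*-/- IL-33 libraries. Within each genotype all IL-33 libraries were above all PBS libraries. Over both genotypes the difference of 1.65 ± 0.48 was not called (limma adjusted p = 0.0566), while the exact permutation p within genotype was 0.005, the smallest possible. It became a call without *Sema6d*-/- PBS replicate 2 (limma adjusted p = 0.022) or WT PBS replicate 3 (0.0314) and with array weights (0.0465). With a pseudocount of 0.1 it was 2.94 (limma adjusted p = 0.111), so its size depends on the pseudocount because of the zeros. In the fit without 3 libraries it was 2.04 (0.141; range over 18 alternatives 0.022 to 0.141).

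*Hpgd* differed between the genotypes under PBS. It encodes 15-hydroxyprostaglandin dehydrogenase, the enzyme that begins the inactivation of prostaglandin E2 and other prostaglandins. It was at 12.5, 16.6 and 7.11 FPKM in WT PBS, listed at 0 in all 3 *Sema6d*-/- PBS libraries, and at 1.57, 1.99 and 0 in WT IL-33 and 3.90, 1.34 and 0 in *Sema6d*-/- IL-33 libraries. The WT PBS libraries were thus above the other 9. Among the 11442 genes tested, 4 (0.035%), *Hpgd* among them, were above 5 FPKM in each WT PBS library and listed at 0 in each *Sema6d*-/- PBS library, and 9 (0.0787%) showed the opposite pattern. The pattern was set after the values of *Hpgd* were seen and follows them, so these shares are a description and not a test.

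The genotype difference of *Hpgd* under PBS was −3.64 ± 0.64 (limma adjusted p = 0.0357; exact permutation p = 0.10, the smallest possible). IL-33 against PBS gave −2.66 ± 0.64 in WT, a fall (limma adjusted p = 0.0383), and 1.17 ± 0.64 in *Sema6d*-/- libraries (limma adjusted p = 0.424; 0.61 without *Sema6d*-/- IL-33 replicate 1, 2.29 without 3 libraries and 3.06 with a pseudocount of 0.1). Both calls rest on the same 3 WT PBS libraries. The interaction, 3.83 ± 0.90, was not called (limma adjusted p = 0.428; exact permutation p = 0.05 for genotype within treatment, added after the values were seen). The null of that exact test is no genotype effect at all, so with the difference under PBS it does not test equal responses. Under IL-33 the genotype difference was 0.19 ± 0.64 (limma adjusted p = 1). It turned to −0.37 without *Sema6d*-/- IL-33 replicate 1 and was 1.31 without 3 libraries.

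The genotype call of *Hpgd* under PBS held in 9 of 19 alternatives, and the call in WT in 8 of 19. Both ended with array weights (limma adjusted p = 0.771 under PBS and 0.200 in WT), no filter (0.0639 and 0.0576), only the groups compared (0.343 and 0.0811), a pseudocount of 0.1 (0.0785 and 0.168) and 3 libraries left out (0.0955 and 0.0604). The differences stayed negative in all of these, at −3.51 and −2.46 with array weights and −6.84 and −4.03 with the pseudocount of 0.1, on which the size depends because of the zeros. The genotype call under PBS also ended in 5 of 12 fits with a library left out, namely WT PBS replicates 1 and 2, WT IL-33 replicates 1 and 2 and *Sema6d*-/- IL-33 replicate 2 (limma adjusted p = 0.0535 to 0.0714; range over 19 alternatives 0.0241 to 0.771). The call in WT ended in 6 of 12, namely the same 5 and WT IL-33 replicate 3 (limma adjusted p = 0.0671 to 0.171; range over 19 alternatives 0.0125 to 0.200).

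For 6 of the genes the values of all 12 libraries, multiplied by relative depth, were whole multiples of 1 step within 0.03, as reads counted in full would be. The smallest whole reads that fit, of which the true numbers may be a multiple, were 114, 182 and 78 for *Hpgd* in the WT PBS libraries, against 0 in each *Sema6d*-/- PBS library. The relative depth was 0.739, 0.889 and 0.887 in WT PBS and 0.842, 0.860 and 0.998 in *Sema6d*-/- PBS. *Hpgds* had 0, 14, 58, 47, 109 and 0 reads in the PBS libraries, in the order given above, and 104 to 273 in the IL-33 libraries. For *Ptger2* the numbers were 170 to 524, for *Ptgs2* 259 to 4407, for *Alox5* 603 to 4379 and for *Ptgir* 998 to 2517. Reads copied by PCR are not independent molecules, and no counting interval is given. The values of *Cysltr1*, *Ptger4* and *Alox5ap* gave no such step.

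**Figure D2:**
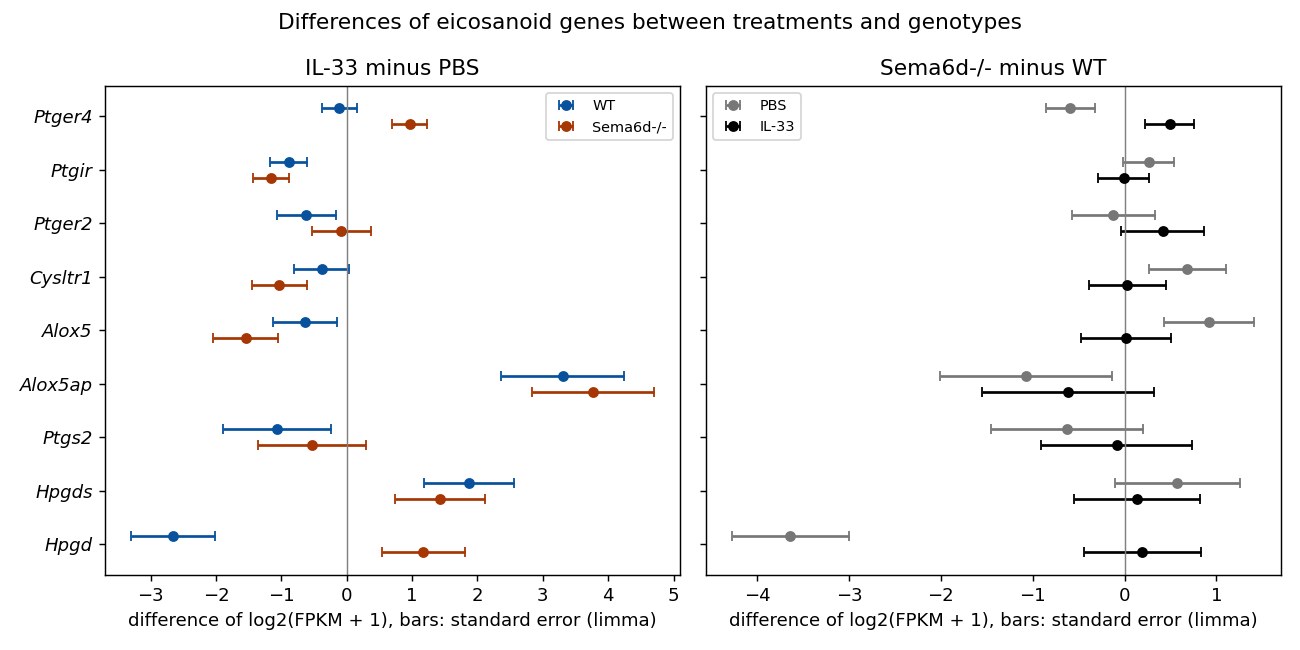
Difference of mean log2(FPKM + 1) of 9 eicosanoid genes, with limma standard errors as bars. The left panel shows IL-33 minus PBS in WT and *Sema6d*-/- libraries, with *Alox5ap* at 3.30 and 3.76 and *Ptgir* at −0.89 and −1.16. The right panel shows *Sema6d*-/- minus WT under PBS and IL-33, with *Hpgd* at −3.64 under PBS.

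Counted over the 9 testable genes, IL-33 against PBS gave 1 call in WT (*Hpgd*), 1 in *Sema6d*-/- (*Ptgir*) and 2 over both genotypes (*Alox5ap* and *Ptgir*). Among all genes tested, 4.33% were called in WT, 2.89% in *Sema6d*-/- libraries and 8.91% over both genotypes. Values without overlap between treatments were found for 5 of the 9 in WT, 6 in *Sema6d*-/- and 1, *Ptgir*, in 6 libraries against 6, beside 25%, 22.6% and 6.43% of all genes tested. The treatment contrasts within a genotype share no library with each other, but each shares its libraries with the contrast over both.

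On the deposited scale the median difference of all genes tested was 0.16 in WT, 0.14 in *Sema6d*-/- libraries and 0.16 over both genotypes, and after quantile normalization it was −0.045, −0.020 and −0.028. Relative to the median over both genotypes, *Ptgir* differed by −1.18 and *Alox5ap* by 3.37, and relative to that in WT, *Hpgd* differed by −2.82. Of the 1019 genes called over both genotypes 65.3% were higher with IL-33, and 50.7% of the 1034 called after quantile normalization. In WT the share was 62.8% before and 51.8% after quantile normalization, and in *Sema6d*-/- libraries it went from 61.6% to 50%. Under quantile normalization the calls of *Ptgir* and *Alox5ap* over both genotypes and of *Hpgd* in WT held, and the call of *Ptgir* in *Sema6d*-/- libraries did not (limma adjusted p = 0.0511).

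Between genotypes, limma called 1 of the 9 genes under PBS (*Hpgd*) and 0 under IL-33. Under IL-33 0 of the 9 had an unadjusted p under 0.05, beside 211 of 11442. The calls among all genes were 0.594% under PBS and 0.00874% under IL-33. Under IL-33 the single gene called was *Sh3bgrl3*, named after its values were seen, at 4164 ± 170 FPKM in WT and 2131 ± 36.6 in *Sema6d*-/- libraries (SD, n = 3 each). Genotypes did not overlap for 1 of the 9 under IL-33 (*Ptger4*) and 1 under PBS (*Hpgd*), beside 14.2% and 8.59% of all genes tested. For the interaction, 2 of the 9 genes (*Hpgd* and *Ptger4*) had an unadjusted p under 0.05, beside 641 of 11442. Limma called 0 of the 9 for it and 0.0175% of all genes. Among these was *Gm5547*, also named after its values were seen, with an interaction of −5.61 ± 0.62 (limma adjusted p = 0.0119).

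Libraries of the same group differed more under PBS than under IL-33. The limma fit used a spread per gene shared by all 4 groups, so its standard errors under IL-33 also carry the spread of the PBS libraries. For 8 of the 9 genes the pooled SD of log2(FPKM + 1) was larger in the PBS than in the IL-33 groups, with *Hpgd* the exception, and this was so for 89.6% of all genes tested. The median pooled SD of the 9 was 0.74 under PBS and 0.25 under IL-33, against 0.85 and 0.33 over all genes tested. The largest contrast was that of *Ptgs2*, with 1.65 and 0.087.

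Other genes of the pathway came from 8 lists with 102 genes, of which 82 could be tested. List genes were tested with any value above 0, whereas genes outside the lists had to reach a mean of 0.5 FPKM. Shares of the 82 and of all genes thus rest on unlike filters, and some of the 82 lie near the floor. Over both genotypes 3 rose with IL-33 (3.66%) and 0 fell, beside 8.91% of all genes called, and 20 of the 82 had an unadjusted p under 0.05, beside 2592 of 11442. The median difference was −0.0052. In WT 1 rose and 0 fell (1.22%, beside 4.33%), and in *Sema6d*-/- libraries 2 rose and 0 fell (2.44%, beside 2.89%). With limma 0 of the 82 were called between genotypes under PBS or IL-33 or for the interaction. In these contrasts 11, 1 and 8 of the 82 had an unadjusted p under 0.05, beside 1484, 211 and 641 of 11442.

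Among 5 other prostanoid receptors, 4 could be tested, 0 were called in any of the 6 contrasts, and the median difference over both genotypes was 0.00080. *Ptger1*, which encodes the prostaglandin E2 receptor EP1, had the highest mean at 7.10 FPKM, and was at 9.01 ± 5.31, 5.93 ± 2.53, 6.79 ± 1.28 and 6.68 ± 0.487 FPKM (SD, n = 3 each) in WT PBS, *Sema6d*-/- PBS, WT IL-33 and *Sema6d*-/- IL-33. *Ptgdr*, *Tbxa2r* and *Ptgfr* had means of 0.0869, 0.0837 and 0.0042 FPKM with zeros included.

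Of 8 other leukotriene and lipid mediator receptors 4 could be tested and 0 were called in any contrast, with a median over both genotypes of 0.073. *Ltb4r1*, which encodes the leukotriene B4 receptor BLT1, had a higher mean than any of the 10 genes. It was at 225 ± 16.2, 363 ± 13.5, 321 ± 28.1 and 308 ± 40.1 FPKM (SD, n = 3 each) in WT PBS, *Sema6d*-/- PBS, WT IL-33 and *Sema6d*-/- IL-33, and the genotype difference under PBS was 0.69 ± 0.14 (limma adjusted p = 0.0539). *Pparg*, a nuclear receptor that binds prostaglandin D2 products, had a mean of 128 FPKM. *Cysltr2*, the second cysteinyl leukotriene receptor gene, had a mean of 12.3 FPKM with 0 to 13.6 in PBS and 4.60 to 34.1 in IL-33 libraries (difference 1.73 ± 0.61, limma adjusted p = 0.108). *Ltb4r2* had a mean of 0.417 FPKM.

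In 11 genes of prostanoid synthesis, 9 of them testable, 0 were called in any contrast. The median difference was −3.2e-05 for IL-33 over both genotypes and 0.91 between genotypes under PBS, beside 0.0036 for all genes tested, 0.90 for the NK cell and 0.63 for the macrophage markers. *Ptges3*, the cytosolic prostaglandin E synthase, was highest at a mean of 104 FPKM, followed by *Cbr1* at 25.2, *Akr1b3* at 16.6 and *Fam213b* at 8.62. *Ptgs1*, the gene of cyclooxygenase-1, was above 1 FPKM in 4 of 12 libraries and reached 11.6. Of 8 genes of leukotriene and lipoxygenase synthesis, 5 were testable and 0 called. Their median was −0.028 over both genotypes, 0.32 in WT, −0.51 in *Sema6d*-/- libraries and 0.84 between genotypes under PBS, beside the same marker medians. What part other cells had in these medians was not tested. *Lta4h*, whose product makes leukotriene B4, had a mean of 65.7 FPKM, and *Mgst3* and *Mgst2*, microsomal glutathione transferases, had 48.0 and 47.8. *Alox8* had 1.08. *Ltc4s*, the gene of leukotriene C4 synthase, was listed at 0 in all 12 libraries.

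Of 13 phospholipase A2 genes 9 were testable and 0 called, with a median of −0.021. *Pla2g16* had the highest mean at 54.1 FPKM, then *Pla2g12a* at 19.8, *Pla2g6* at 2.97 and *Pla2g15* at 2.12, whereas *Pla2g4a*, the cytosolic enzyme that releases arachidonic acid, reached 1.13 FPKM in 1 library and was listed at 0 in 10. Of 16 genes of eicosanoid breakdown and transport 12 were testable, with a median of 0.20 over both genotypes. There *Ptgr1*, a prostaglandin reductase, rose by 1.33 ± 0.33 (limma adjusted p = 0.0274), from at most 0.0646 FPKM in PBS to 0.346 to 4.06 in IL-33 libraries. *Slco3a1* at 31.6, *Ptgr2* at 13.7, *Cyp4f13* at 11.5 and *Abcc1* at 10.2 FPKM had the highest means of this list.

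Among 22 genes of cAMP signalling, the pathway below the receptors of prostaglandin E2 and prostacyclin, 21 were testable, and the median over both genotypes was −0.034. *Prkar2b*, a regulatory subunit of protein kinase A, rose in WT by 2.70 ± 0.38, in *Sema6d*-/- by 2.87 ± 0.38 and over both by 2.78 ± 0.27 (limma adjusted p = 0.00214, 0.00234 and 7.45e-05). It was at most 0.194 FPKM in the 6 PBS libraries and 4.87 to 7.21 in the 6 IL-33 libraries. *Pde4b*, a phosphodiesterase that degrades cAMP, rose in *Sema6d*-/- libraries from 19.0 ± 8.34 to 56.8 ± 7.29 FPKM (SD, n = 3 each; 1.60 ± 0.36, limma adjusted p = 0.0363) and was at 38.7 ± 8.39 and 39.7 ± 13.7 FPKM in WT. Its interaction of 1.61 ± 0.51 was not called (limma adjusted p = 0.748). *Gnas*, *Prkar1a*, *Crem* and *Prkacb* had the highest means, at 503, 386, 381 and 71.8 FPKM.

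Of 19 genes of Gi and Gq signalling, the pathways below cysteinyl leukotriene and chemoattractant receptors, 18 were testable, with a median of −0.020. *Gna15*, a G protein subunit of the Gq class, rose over both genotypes by 1.26 ± 0.28 (limma adjusted p = 0.0146). It was at 18.2 to 48.0 FPKM in PBS and 46.7 to 72.3 in IL-33 libraries, and WT PBS replicate 3 again had the highest PBS value. *Gnai2*, *Gnai3* and *Gna13* had means of 240, 100.1 and 75.1 FPKM.

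The other marker lists gave few calls. Over both genotypes *Cpa3* of the mast cell list fell by 1.35 and *Epcam* of the epithelial list by 2.95, and *Cd68* of the macrophage list rose by 1.13 and *Cd79b* of the B cell list by 2.94 (limma adjusted p = 0.00741, 0.00391, 0.0385 and 0.013). For *Cd68* the difference was 0.19 in WT (limma adjusted p = 0.881) and 2.08 in *Sema6d*-/- libraries (0.0246), and for *Cd79b* it was 4.08 (0.0235) and 1.79 (0.372). Their interactions were not called (0.749 and 0.894). The median difference of the 6 epithelial genes over both genotypes was 0.48, opposite in sign to *Epcam*, and *Sftpc* was listed at 0 in all 6 PBS libraries and at 97.2 FPKM in *Sema6d*-/- IL-33 replicate 3. The basophil, eosinophil, neutrophil, dendritic cell, T cell, NK cell, endothelial and mesenchymal lists held 0 calls in any contrast. Summed levels were 63.9 to 289 FPKM for the mast cell list, led by *Kit*, and 190 to 483 for the T cell list, which came mainly from *Cd3g* with a mean of 284. They were 37.3 to 189 for the epithelial list, led by *Hopx*, 0 to 26.9 for the B cell list and at most 23.1 for each of the basophil, eosinophil, neutrophil, dendritic cell, endothelial and mesenchymal lists. In bulk RNA, fewer cells of a type and less RNA per cell cannot be told apart.

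For the 4 genes with the highest means, the tested genes with the most similar profile over the 12 libraries were found by the root mean square difference of centred log2(FPKM + 1). Closest to *Ptger4* were *Med13l*, *Ppa1* and *Ap3s1* (0.254, 0.258 and 0.261), and closest to *Ptgir* were *Rnf128*, *Cd300a* and *Klf4* (0.222, 0.231 and 0.240). Closest to *Alox5* were *Pilra*, *Gga3* and *Unc5b* (0.398, 0.406 and 0.418), and closest to *Cysltr1* were *Tia1*, *Vars* and *Prpf8* (0.249, 0.281 and 0.296). Under IL-33 the genotypes overlapped for *Med13l* and *Ppa1*, and did not for *Ap3s1* or *Ptger4*. *Pilra* and *Unc5b* were weakly expressed, with group means of at most 1.86 and 2.94 FPKM.

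The 10 genes lie on 9 chromosomes of GRCm38, and 2 of them, *Hpgds* and *Alox5*, share chromosome 6 without being neighbours. The receptor genes are *Ptgdr2* at chr19:10937160-10942511 (plus strand), *Ptger2* at chr14:44988195-45003820 (plus), *Ptger4* at chr15:5206661-5244187 (minus), *Ptgir* at chr7:16906490-16910905 (plus) and *Cysltr1* at chrX:106574346-106603679 (minus). The enzyme genes are *Ptgs2* at chr1:150100031-150108227 (plus), *Hpgds* at chr6:65117293-65144908 (minus), *Hpgd* at chr8:56294585-56321043 (plus), *Alox5* at chr6:116410077-116461178 (minus) and *Alox5ap* at chr5:149264767-149288153 (plus). Exons of *Ptgdr2* share 1031 of 2644 bases with *Ccdc86* on the opposite strand, which was at 0 to 5.98 FPKM. Exons of *Ptger4* share 82 bases with *Ttc33* and 1015 with a pseudogene, and those of *Alox5ap* 189 bases and of *Ptger2* 144 and 246 bases with unnamed gene models. Where reads are counted without strand, those of overlapping genes cannot be told apart.

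RefSeq promoter sequences (GRCm38.p6) were found for 8 of the 10 genes, and not for *Cysltr1* and *Alox5ap*. The RefSeq starts of *Ptger2*, *Hpgd* and *Hpgds* differ from the gene positions given above. The 250 bases taken for *Hpgds*, chr6:65144731-65144980 (minus strand), lie partly inside that gene as positioned above. In the 250 bases before the start, a GC box (GGGCGG on either strand, the core bound by Sp family factors) was present in 6 of the 8, *Ptgdr2*, *Ptger4*, *Ptgir*, *Hpgd*, *Alox5* and *Ptgs2*, and in 32.7% of 32851 promoters. *Ptger4* held 4 of them and *Ptgir* held 2. A RUNX motif (TGTGGT) was present in *Hpgds* and *Ptgs2* and in 14.0% of all promoters. The half-site TGACG of a cAMP response element, the motif AGATAA of GATA factors and an AP-1 motif, present in 17.8%, 9.99% and 6.75%, were found in 0 of the 8. The last 120 bases before the start are shown for *Ptgir* and *Hpgd*, which had calls, and for *Ptger4* and *Alox5*, which had the highest means and no call, with GC boxes on either strand in capitals. They lie at chr15:5244188-5244307 (minus strand), chr7:16906370-16906489 (plus), chr8:56294432-56294551 (plus) and chr6:116461179-116461298 (minus), and a match is a description of the sequence only.
Ptger4: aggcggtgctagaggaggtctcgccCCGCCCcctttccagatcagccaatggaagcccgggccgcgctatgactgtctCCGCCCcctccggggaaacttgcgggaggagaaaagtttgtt
Ptgir: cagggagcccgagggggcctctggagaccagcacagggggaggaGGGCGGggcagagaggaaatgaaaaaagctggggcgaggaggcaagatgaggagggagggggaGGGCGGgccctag
Hpgd: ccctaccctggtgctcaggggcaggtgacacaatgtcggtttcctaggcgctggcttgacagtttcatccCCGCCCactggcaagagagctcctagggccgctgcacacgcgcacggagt
Alox5: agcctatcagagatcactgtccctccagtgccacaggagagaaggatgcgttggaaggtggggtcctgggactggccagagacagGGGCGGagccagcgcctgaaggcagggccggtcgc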

How the data were processed

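The authors deposited FPKM values for 24346 gene symbols in 12 libraries. Per the labels they were made from reads mapped to mm10 with TopHat2 2.1.1 and Bowtie2 and quantified with Cuffdiff 2.2.1. The study's methods name another TopHat version, and Cuffnorm in place of Cuffdiff. The labels and the methods also differ on the library kit, so the use of strand is not known. FPKM carry no read totals, and relative depth, estimated from genes below 3 FPKM, spanned 1.88-fold over the libraries.

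The genes described and all lists were chosen with earlier results of these data known. Genes named are the 10 genes and *Sema6d*, and per list up to 4 with the highest mean and up to 4 called with the largest change in any contrast. For the 4 genes with the highest means, the 3 tested genes with the most similar profile were also named. Other genes named, such as *Ptgs1*, *Ltc4s*, *Pla2g4a*, *Gata3*, *Il1rl1* and most marker genes listed at 0, fall outside this rule and were chosen after their values were seen. Groups were compared with limma 3.58.1 (lmFit, contrasts.fit and eBayes with a trend) in R 4.3.3 on log2(FPKM + 1), with 4 group means, 8 residual degrees of freedom and no covariates. The 11442 genes tested reached a mean of 0.5 FPKM or belonged to the lists, and two-sided p-values were given the Benjamini-Hochberg adjustment over them. Exact permutation tests, summaries and figures used Python 3.11.15, numpy 2.4.6, pandas 2.3.3, scipy 1.17.1 and matplotlib 3.10.9. The scripts' tests were tried on simulated data. Alternatives were a pseudocount of 0.1, no filter, quantile normalization, array weights, a replicate block, only the groups compared, each library left out in turn and, chosen after the marker values were seen, 3 libraries left out together. Positions are from GENCODE vM21 and promoters from RefSeq (GRCm38.p6). Protein data and other experiments of the study were not analysed.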

Additional observations from a re-analysis of the deposited data

Results flagged for a closer look

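The interaction of genotype and treatment for *Ptger4* had an exact permutation p of 0.015 (range over alternatives 0.005 to 0.045). The test permutes genotype within treatment, so its null is no genotype effect at all and not equal responses. It was added after the values were seen and is not adjusted for the number of genes looked at. The log2 difference between IL-33 and PBS was −0.12 ± 0.27 (SE) in WT (−0.21 to −0.017 over 19 alternatives) and 0.97 ± 0.27 in *Sema6d*-/- libraries. With limma the interaction of 1.08 ± 0.38 was not called (adjusted p = 0.842, range over 18 alternatives 0.166 to 1). *Sema6d*-/- PBS replicate 2, which held NK cell transcripts, had the lowest *Ptger4* value of the 12 libraries, 51.8 FPKM, and without it the interaction was 0.75. What sets the groups apart was not tested.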

How the results depend on the processing

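Over 54 log2 differences of the 9 testable genes and 1008 values under alternatives, 918 kept direction and side of the threshold, 38 lost a call, 20 gained one and 32 turned direction, 0 of the last called. The causes were not tested.

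With the 3 libraries with markers of other cells left out, chosen after seeing the data, the *Sema6d*-/- IL-33 group kept 1 library and the *Sema6d*-/- PBS group 2, so the spread comes from the other groups and the counts say nothing of the other cells. Fewer genes were called for IL-33 against PBS in *Sema6d*-/- (41 genes against 331) and over both genotypes (494 against 1019). Calls were 21 against 1 between genotypes under IL-33, 10 against 68 under PBS and 15 against 2 for the interaction, and 0 of the 9 genes were called in any contrast. Array weights gave 210 genes in *Sema6d*-/-, 57 between genotypes under IL-33, 1 under PBS and 1 for the interaction, and of the 9 genes 0 in WT, 3 in *Sema6d*-/-, 4 over both genotypes and 0 between genotypes under PBS. No filter gave 33 genes between genotypes under PBS, and 0 of the 9 in WT, in *Sema6d*-/- and between genotypes under PBS. Only the groups compared gave 0 genes between genotypes under IL-33 and 1 under PBS, and 0 of the 9 in WT and between genotypes under PBS. The pseudocount of 0.1 gave 2 genes between genotypes under IL-33 and 5 for the interaction, and 0 of the 9 in WT and between genotypes under PBS. Quantile normalization gave 0 genes between genotypes under IL-33 and 36 under PBS.

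Libraries of the same number share only the number. Their correlations over 18 pairs were −0.0468 to 0.0448, 0 of them over 0.1. The replicate block gave 367 genes in WT, 221 in *Sema6d*-/-, 817 over both genotypes, 1 between genotypes under IL-33, 15 under PBS and 1 for the interaction, and 0 of the 9 in *Sema6d*-/-, where *Ptgir* was no longer called (limma adjusted p = 0.0806).

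With each library left out in turn, genes called were 210 to 692 in WT (495 with all), 138 to 497 in *Sema6d*-/-, 672 to 1250 over both genotypes, 0 to 3 between genotypes under IL-33, 20 to 201 under PBS and 0 to 28 for the interaction. Of the 9 genes, 0 to 2, 0 to 3, 2 to 4, 0, 0 to 2 and 0 were called.

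Differences that turned direction in *Sema6d*-/- libraries were *Ptger2* (0.011 with array weights, 0.0041 with quantile normalization) and *Ptgs2* (0.016 with array weights). With the 3 libraries left out, the genotype difference under PBS was 0.30 for *Ptger2*, −0.0063 for *Hpgds* and 0.060 for *Ptgs2*, and the interaction was 0.33 for *Hpgds* and −0.064 for *Ptgs2*.

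Leaving out 1 library at a time turned these, given as ranges. For IL-33 against PBS they were *Cysltr1* in WT −0.89 to 0.011, and in *Sema6d*-/- *Ptger2* −0.50 to 0.26 and *Ptgs2* −1.21 to 0.78. Between genotypes under IL-33 they were *Cysltr1* −0.12 to 0.22, *Ptgir* −0.15 to 0.11, *Hpgd* −0.37 to 0.78, *Hpgds* −0.050 to 0.34 and *Alox5* −0.075 to 0.11. Under PBS they were *Ptger2* −0.46 to 0.30, *Hpgds* −0.0063 to 1.29, *Alox5ap* −1.84 to 0.31 and *Ptgs2* −1.93 to 0.060. For the interaction they were *Hpgds* −1.16 to 0.14, *Alox5ap* −0.93 to 1.23 and *Ptgs2* −0.15 to 1.84. Exact permutation p within genotype ranged from 0.005 to 0.09 for *Alox5*, 0.005 to 0.145 for *Cysltr1* and 0.02 to 0.535 for *Ptger2*, and for the interaction of *Hpgd* from 0.03 to 0.08.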
